A study of Saccharomyces cerevisiae with 11 samples.

Results

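The comparison described here is between budding yeast cells (Saccharomyces cerevisiae) carrying a plasmid copy of SCC2 with the variant G1242V and cells with the same plasmid carrying the wild-type gene (WT). The groups were taken from the plasmid and mutation labels, and they hold 6 of the series' 11 libraries, 3 from G1242V and 3 from WT cultures. Every culture had the same W303 genotype, MATa with the auxotrophic alleles his3-11,15 and ade2-1, a leu2 allele and trp1-1, and with can1-100. All also carried the integrated ura3-1::ADH1-OsTIR1(pMK200,URA3), in which the ADH1 promoter drives the plant auxin receptor OsTIR1, and the degron allele SCC2-AID*-6FLAG-HYG at the chromosomal locus. The plasmids were pRS413-SCC2-7MYC-HIS for WT and pRS413-scc2-G1242V-7MYC-HIS for the variant, both selected in medium without histidine. The other plasmids of the series, pRS413-scc2-R787G-7MYC-HIS in 3 cultures and pRS413-HIS without SCC2 (the empty vector) in 2, serve here to show where G1242V differs. All groups, WT included, had 1 mM IAA (auxin) for 9 h before harvest at an OD600 of 0.4 to 0.8, so no culture without auxin enters the comparison. The replicates are separate cultures, and whether they came from separate transformants is not given in the sources used here.

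Scc2 and its partner Scc4 load cohesin, the ring of Smc1, Smc3, Mcd1 (also called Scc1) and Irr1 (Scc3) that holds sister chromatids together and folds chromosomes into loops. The human counterpart of Scc2 is NIPBL, and changes in NIPBL are a known cause of Cornelia de Lange syndrome. In yeast, loss of Scc2 function has been linked to lower ribosomal DNA transcription and protein synthesis, which is background and not a result of these libraries. By design the chromosomal copy is degraded in auxin and the plasmid allele remains, though protein was not measured in these files.

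The variant G1242V replaces a glycine of Scc2 by valine, in a reading frame of 1493 codons. The reference sequence around that codon is shown to place the change, with the glycine codon in capitals; it is the forward strand of SCC2 (YDR180W) at chrIV:824958-825080 of the sacCer3 build (R64, RefSeq), inside the single coding exon, and the codon lies at 825018 to 825020.
SCC2 around the codon changed in G1242V: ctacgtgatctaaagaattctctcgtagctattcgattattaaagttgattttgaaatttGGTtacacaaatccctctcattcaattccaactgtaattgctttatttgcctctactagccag
The deposited values are transcript levels and do not show the base at this codon in any library.

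Levels below are scaled TPM, the authors' relative transcript levels adjusted between libraries by a median-of-ratios factor, and are given in the order of replicates 1, 2 and 3. Differences are log2 fold changes of G1242V over WT ± SE on log2(scaled TPM + 1), a scale that understates the change of low genes, with adjusted p from limma over all 6432 genes tested. A gene is said to have risen or fallen where adjusted p was under 0.05. Depth is unknown, since TPM do not keep it, and in bulk RNA a change in the mix of cells, for instance between cell cycle stages, cannot be told apart from a change per cell.

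The libraries of a group were alike, with Pearson's r across genes of 0.989 to 0.995 among the G1242V libraries and 0.984 to 0.989 among WT, against 0.931 to 0.969 between them. WT replicate 2 stood apart with 9.19% of TPM in rRNA, where the other 10 libraries held 0.155% to 0.494%. On chromosome I the median difference of a library from the WT mean was -0.19, 0.41 and -0.26 in G1242V and 0.47, -0.43 and -0.0091 in WT, and on chromosome IX it reached 0.22 in G1242V replicate 3. The chromosome is therefore given for every gene named from these 2 chromosomes. The 6 marker genes of a cells summed to 874 to 950 scaled TPM in G1242V and to 576 to 713 in WT, the 4 of alpha cells to 28.9 to 32.4 and 34.3 to 40.4, and the 6 of meiotic cells to 35.4 to 39.7 and 32.9 to 38.4. Of the alpha markers, MF(ALPHA)2, an alpha-factor gene, was under 1 scaled TPM in all 6 libraries. SAG1 was the highest of the 4, at 21.1 to 22.4 in G1242V and 26.2 to 32.7 in WT. By their sums the markers did not go against the labelled mating type.

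SCC2 itself was read at 126, 100.7 and 108 scaled TPM in WT and 78.1, 96.9 and 96.4 in G1242V. The G1242V libraries all lay below the WT libraries, the nearest pair being close together, and the log2 fold change of -0.30 ± 0.13 did not pass the threshold (adjusted p = 0.0677). With TPM rescaled to nuclear protein-coding genes it was -0.37 and passed (adjusted p = 0.033). HIS3, the histidine synthesis gene that marks the plasmid, stood at 986, 639 and 869.9 in WT and 1955, 2413 and 1907 in G1242V, with no overlap. It rose by a log2 fold change of 1.34 ± 0.19 (adjusted p = 2.20e-04), while SCC2, present on the same plasmid and at the chromosomal locus, did not. HIS3 was also higher in G1242V than in R787G (1.21 ± 0.19, adjusted p = 0.00103) and than in the empty vector (1.16 ± 0.21, adjusted p = 0.00101). Whether plasmid number per cell differs was not measured. The chromosomal his3-11,15 allele may add reads to HIS3, and the chromosomal degron allele may add reads to SCC2. Neither level need therefore be that of the plasmid alone.

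The cohesin ring rose and its loader partner fell. Of 9 genes of the ring, the loader and their regulators, 5 rose, where 26.6% of all genes tested were called higher, and 1 fell, where 27.3% were called lower. The median of these 9 genes was 0.63. Against the same WT libraries it was 0.77 in R787G and 0.86 in the empty vector. MCD1, the kleisin subunit that separase cuts at anaphase, stood at 17.6, 17.9 and 22.3 in WT and 47.9, 56.7 and 45.97 in G1242V, a log2 fold change of 1.34 ± 0.099 (adjusted p = 5.17e-06). The lowest G1242V culture had more than any WT culture by a wide margin. SMC1 and SMC3, the paired ATPase arms of the ring, rose by 0.67 ± 0.092 and 0.72 ± 0.097, from 20.7, 23.1 and 27.6 to 37.9, 40.4 and 36.1 for SMC1 and from 14.3, 12.7 and 13.6 to 23.4, 26.6 and 19.5 for SMC3. PDS5, which binds the ring and keeps cohesion, rose by 0.73 ± 0.089, and IRR1 (chromosome IX), the HEAT-repeat subunit, by 0.63 ± 0.14 (adjusted p = 0.00354). SCC4, the partner of Scc2 in the loader, fell from 33.3, 33.4 and 28.9 to 18.5, 18.2 and 18.2, a log2 fold change of -0.77 ± 0.066 (adjusted p = 1.13e-05) with no overlap. ECO1, the acetyltransferase that locks the ring on DNA, had 0.046 (adjusted p = 0.747), and RAD61, which opens the ring, 0.066 (adjusted p = 0.616).

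**Figure D1:**
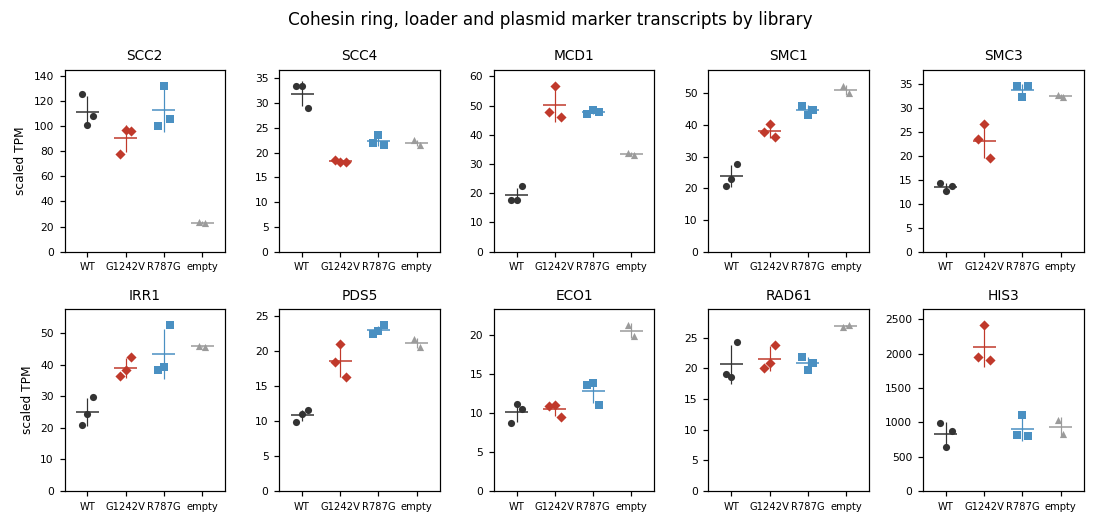
Scaled TPM (vertical axis, linear from 0) of SCC2, SCC4, 7 other cohesin genes and HIS3 in each library, by group; points are libraries and bars are group means. MCD1, SMC1, SMC3, PDS5 and IRR1 lie higher and SCC4 lower in all 3 G1242V libraries than in any WT library, and ECO1 and RAD61 overlap.

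Among 14 further genes that act on cohesion, 9 rose and 3 fell, with a median of 0.33 where the median of all genes was 0.0021. CTF18, a subunit of the replication factor that sets cohesion during S phase, rose from 6.22, 7.56 and 8.38 to 17.6, 17.7 and 13.6 (1.04 ± 0.11, adjusted p = 4.84e-05). PDS1, the securin that holds separase in check, rose by 1.04 ± 0.13, while CTF8, which works in the same complex as Ctf18, fell, at -0.45. Of 13 condensin and Smc5/6 genes 4 rose and 3 fell, shares near the 26.6% and 27.3% of all genes: YCS4, a condensin subunit, rose by 0.57 ± 0.086, and NSE1, of the Smc5/6 complex, had -0.46 ± 0.058. Of 20 inner kinetochore genes 8 rose and 1 fell, and without G1242V replicate 1 or without WT replicate 2 it was 5 and 1. WIP1 led the rises with 0.74 ± 0.16 (adjusted p = 0.00321). The spindle checkpoint and chromosomal passenger list had 4 of 10 genes higher and 3 lower, also not far from those shares: SLI15, the inner centromere scaffold of the Aurora kinase, rose by 0.44, and MAD2, a checkpoint protein, had -0.59.

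Over the whole transcriptome 3472 of 6432 genes, 54% of those tested, passed the threshold, 1714 higher and 1758 lower in G1242V. Most changes were small: 306 rose and 249 fell by at least 2-fold, and the quartiles of all log2 fold changes were -0.28 and 0.30. With 27.3% of genes non-overlapping upward and 27.3% downward, a lone gene past the threshold is common here. The largest rises were mostly cytosolic ribosomal proteins, and the 15 largest falls held members of the oxidative stress list beside genes of other kinds. Among the 15 largest rises, the genes outside ribosomes were HO, the mating-type switching endonuclease, the small nucleolar RNA SNR56, and INO1, which makes inositol phosphate. HO stood at 4.85, 3.02 and 3.59 in WT and 38.2, 42.4 and 22.4 in G1242V (2.84 ± 0.22, adjusted p = 6.39e-06). INO1 stood at 15.0, 15.04 and 20.5 and 116, 105 and 134 (2.75 ± 0.14, adjusted p = 2.86e-06). Both genes were named by a rule that required groups without overlap. YDL218W, which has no standard symbol and was picked out after its values were seen, stood at 524, 723 and 169.8 in WT and 10.3, 12.5 and 10.1 in G1242V, with a log2 fold change of -5.08 ± 0.41 (adjusted p = 8.07e-06), a larger fall than that of any gene with a symbol taken by the same criteria.

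**Figure D2:**
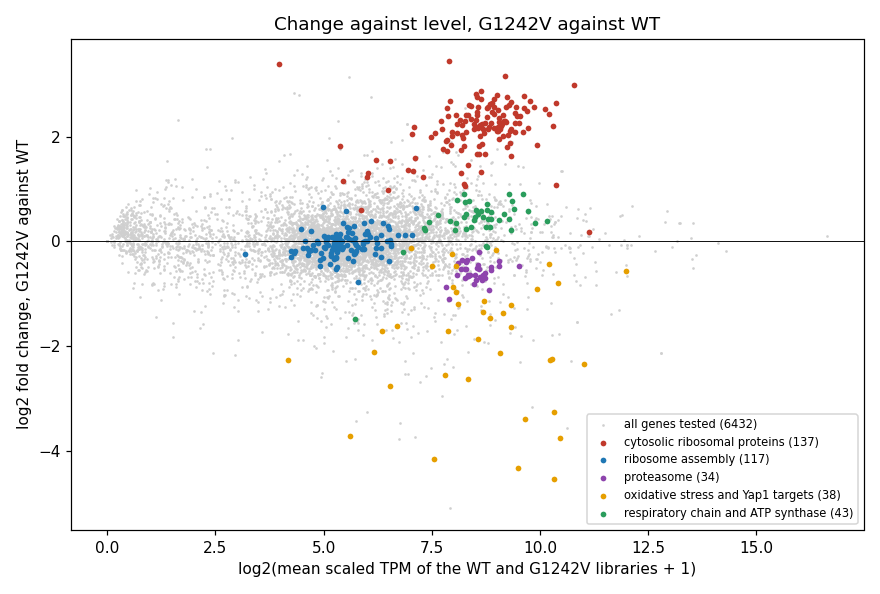
Each point is a tested gene, with log2(mean scaled TPM of the 6 libraries + 1) on the horizontal axis and the log2 fold change of G1242V against WT on the vertical axis; 5 gene lists are coloured. Cytosolic ribosomal proteins form a cloud around 2.21, the oxidative stress list lies around -1.68, the proteasome around -0.57, and ribosome assembly genes lie around 0.

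Cytosolic ribosomal protein genes rose almost without exception. Of 137 measured, 136 rose and none fell, with a median log2 fold change of 2.21, and the list's median difference from the WT mean was 2.56, 2.22 and 1.88 in the 3 G1242V libraries and 0.20, -0.22 and 0.047 in the 3 WT libraries. G1242V replicate 3 lay closest to WT. RPL9A, of the large subunit, stood at 44.1, 29.4 and 42.8 in WT and 572, 428 and 312 in G1242V (3.44 ± 0.21, adjusted p = 3.23e-06). RPL24A, also of the large subunit, rose from 128, 83.7 and 144 to 1276, 980.2 and 891 (3.15 ± 0.19). Both changes were far larger than the spread between cultures. RPS31, a small-subunit protein made as a fusion with ubiquitin, rose from 431, 294 and 454 to 3885, 2881 and 2567 (2.99 ± 0.18). WT replicate 2, the library rich in rRNA, was the lowest for these genes, and without it 135 rose and none fell. RPL10 was the exception, with 0.18 ± 0.13 (adjusted p = 0.274). RPL41B, at 0 in 2 WT libraries, passed in the full fit but not without G1242V replicate 1 or 3 or WT replicate 2 or 3 (adjusted p 0.076 to 0.103). Many of these proteins have near-identical gene pairs whose 50 bp reads RSEM had to divide, so the list is firmer than a single copy.

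ASC1, a scaffold protein of the small subunit that was listed with amino acid genes here, rose from 95.5, 64.4 and 106 to 653, 479.7 and 430.2 (2.55 ± 0.19, adjusted p = 5.66e-06). Of 15 elongation factor genes 7 rose and 2 fell: STM1, which binds and stores ribosomes, rose from 298, 242 and 279.6 to 1213, 1058 and 829 (1.90 ± 0.13), and HEF3, the seldom used copy of elongation factor 3, had -1.04 ± 0.13. Of 27 initiation factor genes 8 rose and 2 fell (median 0.10), the rises near the 26.6% of all genes. With quantile normalization it was 4 and 3. TIF1, the helicase eIF4A, rose by 1.11 ± 0.13 and TIF11, eIF1A, by 1.07 ± 0.10, while DED1, another initiation helicase, had -0.53 ± 0.12. TIF1 has a near-identical partner gene. Mitochondrial ribosomal proteins, encoded in the nucleus, rose in 63 of 65 cases with none lower and a median of 0.78. MRP2 went from 49.6, 48.1 and 58.98 to 155, 149 and 120.1 (1.41 ± 0.10), and MRPL32 from 40.03, 33.8 and 46.6 to 113, 104 and 105 (1.41 ± 0.099).

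The factors that build ribosomes did not rise with the ribosomal proteins. Of 54 small-subunit assembly genes 4 rose and 3 fell (median -0.061), and of 63 large-subunit assembly genes 2 rose and 3 fell (median -0.069), shares well under the 26.6% and 27.3% of all genes. These counts rested on the WT libraries, which differed among themselves: small-subunit medians in WT were 0.31, -0.010 and -0.31 around their mean, against -0.023, 0.18 and -0.34 in G1242V. Without WT replicate 3 the counts became 1 up and 18 down for the small and 2 up and 17 down for the large subunit. Without WT replicate 1 they became 10 up and 1 down, and 6 up and 2 down. Without G1242V replicate 3 the small-subunit list had 8 up and 1 down. UTP5, a small-subunit assembly protein, was at 50.7, 41.5 and 27.9 in WT and 29.3, 32.8 and 24.3 in G1242V (log2 fold change -0.43, adjusted p = 0.0711; -0.67 and past the threshold without WT replicate 3). RRP1, of large-subunit assembly, rose from 28.7, 21.6 and 20.7 to 39.02, 44.03 and 30.4 (0.65 ± 0.14, adjusted p = 0.00317), and REI1, a late cytoplasmic factor, fell from 83.1, 75.6 and 50.2 to 37.8, 45.9 and 35.8 (-0.77 ± 0.16).

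RNA polymerase I, which makes the rRNA precursor, had 2 of 16 genes higher and 6 lower. That count fell to 1 and 3 without G1242V replicate 1 or without WT replicate 2, and was 4 and 3 without G1242V replicate 3 and 3 and 3 without WT replicate 1. RRN11, of the core factor, had -0.66 ± 0.13, and RRN3, which brings the polymerase to the promoter, -0.52 ± 0.13 (adjusted p = 0.00789). RNA polymerase III had 3 higher and 3 lower of 21, led by TFC8 at 0.36 and RPO31, the largest subunit, at -0.60; without WT replicate 1 it was 5 and 2, without WT replicate 3 it was 2 and 6, and without WT replicate 2 it was 1 and 1. Of 12 known regulators of ribosomal protein genes 2 rose and 8 fell, with a median of -0.47. The rises, RAP1 (0.30), which binds ribosomal protein promoters, and HMO1 (0.24), a high mobility group protein, lost their calls without WT replicate 2, when none rose and 7 fell, and also without G1242V replicate 1 and in the fit of only the 2 groups. HMO1 lost its call too without G1242V replicate 2 or WT replicate 3 and with rescaling to coding genes. CRF1, a corepressor, fell from 26.1, 25.5 and 45.9 to 6.26, 8.15 and 9.16 (-1.88 ± 0.22, adjusted p = 6.97e-05), and SFP1, an activator, fell from 83.4, 91.8 and 76.9 to 47.9, 47.8 and 53.1 (-0.75 ± 0.072). Both a repressor and an activator were lower. Of 74 small nucleolar RNAs, guides for rRNA modification, 19 rose and 2 fell, a share of rises near the 26.6% of all genes, and with quantile normalization it was 19 and 5. SNR56 led the rises with 2.79 ± 0.22, SNR66 had 1.31 ± 0.19, and SNR48 fell from 24.3, 38.2 and 41.6 to 11.9, 11.8 and 4.08.

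**Figure D3:**
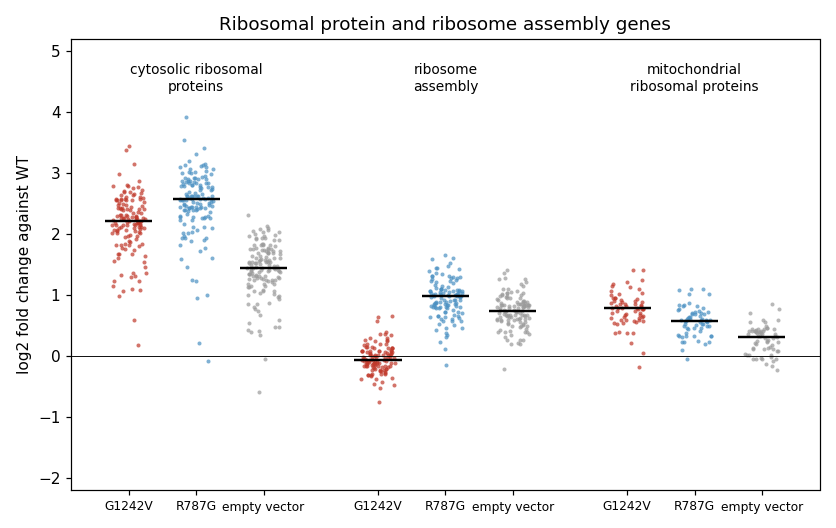
Log2 fold change against WT (vertical axis) for each cytosolic ribosomal protein, ribosome assembly and mitochondrial ribosomal protein gene in G1242V, R787G and the empty vector, which share the WT libraries; points are genes and bars are medians. Ribosomal proteins lie high for all 3 plasmids, while assembly genes lie near 0 for G1242V and higher for the other 2.

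Letters known for ribosomal protein and for assembly genes were counted in their promoters, each against all promoters and not against the other list. Stretches are shown because the lists differed in their counts of rises. Promoter windows ran from 400 to 101 bases before the start codon, so as to stay clear of transcript leaders, and both strands were read. Motifs were chosen with the results known, and a match is a description and not a bound site. CCGTACA, a form of the Rap1 element typical of ribosomal protein genes, was found in 28.5% of 137 ribosomal protein promoters and in 3.06% of all 5784, and another form, CCCATAC, in 18.98% against 2.59%. Promoters can hold both forms. GATGAG, the PAC element of ribosome assembly genes, was found in 63.0% of the small-subunit and 66.7% of the large-subunit assembly promoters, against 17.9% of all. The stretches around a match, with the motif in capitals, run 5′ to 3′ along the gene's strand in sacCer3 (RefSeq).
RPS4A (chrX:703384-703468, reverse strand): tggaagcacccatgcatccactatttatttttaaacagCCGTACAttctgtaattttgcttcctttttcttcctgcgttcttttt
RPS22A (chrX:75523-75609, reverse strand): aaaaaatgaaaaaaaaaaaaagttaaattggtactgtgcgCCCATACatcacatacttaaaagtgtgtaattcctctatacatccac
UTP5 (chrIV:1267300-1267370, forward strand): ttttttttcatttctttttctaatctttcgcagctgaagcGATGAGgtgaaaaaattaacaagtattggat
RRP1 (chrIV:618407-618465, reverse strand): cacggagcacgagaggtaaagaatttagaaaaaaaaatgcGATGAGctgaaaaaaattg
RPS4A and RPS22A, both small-subunit proteins, rose by 2.72 ± 0.18 and 2.87 ± 0.23.

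Oxidative stress genes fell almost without exception. Of 38 genes known for oxidative stress or as targets of the transcription factor Yap1, 34 fell and none rose, with a median of -1.68. Against the same WT libraries the median was -1.97 in R787G and -1.77 in the empty vector. The list's median difference from the WT mean was -1.82, -1.79 and -1.22 in the G1242V libraries and 0.018, 0.15 and -0.15 in WT. FLR1, a membrane pump for drugs, stood at 2419, 3015 and 1949 in WT and 66.1, 102 and 161 in G1242V (-4.54 ± 0.27, adjusted p = 3.23e-06). AAD4, a putative aryl-alcohol dehydrogenase with near-identical relatives, stood at 1473, 1613 and 984 and 37.2, 57.2 and 133 (-4.31 ± 0.37, adjusted p = 1.18e-05). OYE3, an NADPH oxidoreductase, stood at 2573, 3029.9 and 2237 and 127, 188 and 297 (-3.75 ± 0.25). In all 3 genes the highest G1242V culture, replicate 3, had a small part of the lowest WT level. The glutathione transferases GTT2 and ECM4 fell, at -3.39 ± 0.32 and -3.26 ± 0.26, and SRX1, which repairs overoxidized peroxiredoxin, at -3.71 ± 0.32. TSA2, a peroxiredoxin, fell from 450.5, 643 and 548 to 61.7, 72.2 and 147 (-2.63 ± 0.27), and OSI1 from 1735, 1504 and 1611 to 119, 224 and 218 (-3.16 ± 0.21). YAP1, which encodes the regulator, fell from 374, 428 and 355 to 154, 169 and 178 (-1.20 ± 0.080, adjusted p = 3.88e-06). The members that did not pass were GRX1 (-0.44), DOT5 (chromosome IX, -0.12), TRX1 (-0.16) and MET22 (-0.46). GRX1, TRX1 and MET22 did pass without G1242V replicate 3, at -0.64, -0.22 and -0.59, GRX1 also without WT replicate 1 (-0.61) and MET22 also without WT replicate 2 (-0.63). Without WT replicate 2 the count was still 34 lower and 0 higher.

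TTACTAA, the Yap1 element, was found on either strand in 37.8% of 37 promoters of the oxidative stress list and in 6.92% of all promoters. Among genes that changed at least 2-fold it was in 22.5% of 231 promoters of falls and in 6.12% of 294 promoters of rises. FLR1 and AAD4 are shown as the list's largest falls with a match, the motif in capitals and 5′ to 3′ along the gene.
FLR1 (chrII:254528-254609, reverse strand): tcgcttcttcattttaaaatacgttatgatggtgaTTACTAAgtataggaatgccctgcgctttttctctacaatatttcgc
AAD4 (chrIV:18876-18962, reverse strand): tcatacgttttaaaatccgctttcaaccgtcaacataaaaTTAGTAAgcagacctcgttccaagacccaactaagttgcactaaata
In AAD4 the match is on the other strand and reads TTAGTAA.

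Drug pumps as a group were mixed, with 11 of 22 lower and 3 higher: SNQ2, an efflux pump, fell from 627, 676 and 703 to 215, 227 and 288 (-1.47 ± 0.10), while PDR12, which exports weak acids, rose from 114, 77.2 and 124 to 319, 310.2 and 219 (1.43 ± 0.18). Of other large falls, YHK8, a putative transporter, stood at 374, 428 and 251 in WT and 14.5, 15.2 and 28.2 in G1242V (-4.14 ± 0.25). FRM2 and HBN1, nitroreductase-like proteins encoded next to each other on chromosome III, fell, at -3.76 ± 0.48 and -2.95 ± 0.27. FRM2 varied in WT, at 246, 299 and 57.6, and stood at 11.2, 12.3 and 9.74 in G1242V. SPS100, a spore wall protein, fell, at -3.73 ± 0.24, CIS1 at -2.75 ± 0.30, and PDC6, the minor pyruvate decarboxylase, from 51.4, 112 and 183 to 7.71, 9.82 and 12.4 (-3.25 ± 0.37).

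**Figure D4:**
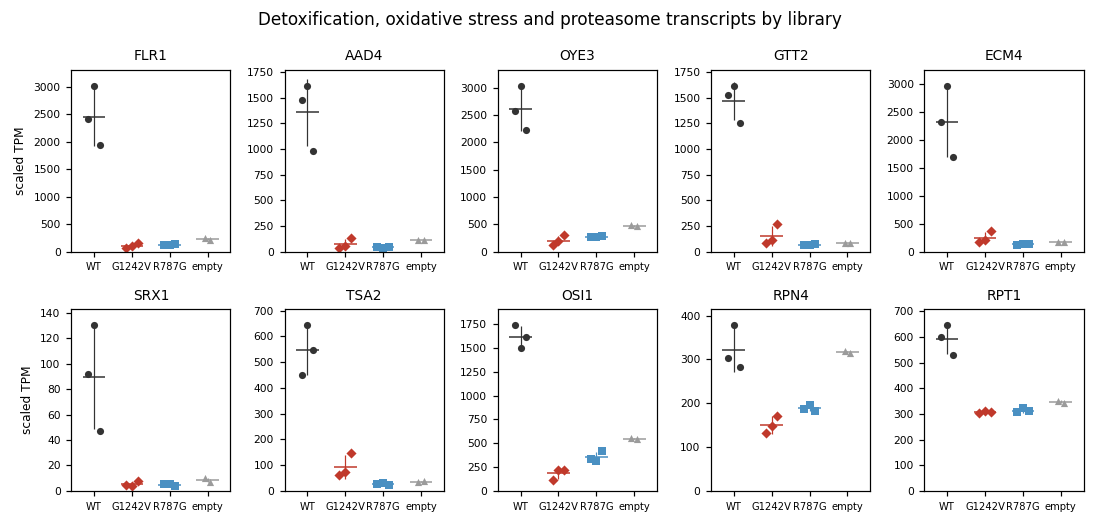
Scaled TPM (vertical axis, linear from 0) of 8 detoxification or oxidative stress genes and of RPN4 and RPT1 in each library, by group; points are libraries and bars are group means. All 10 genes are lower in each of the 3 G1242V libraries than in any WT library, which the rule that named the first 8 required.

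The proteasome fell as a block but by less. Of 34 genes, 33 fell and none rose, with a median of -0.57, and only PRE9, a core subunit, did not pass (-0.20, adjusted p = 0.147), although it did without WT replicate 2 (-0.35). RPN4, the transcription factor for proteasome genes, stood at 303, 378 and 284 in WT and 132, 147 and 171 in G1242V (-1.09 ± 0.12, adjusted p = 4.13e-05). RPT1, an ATPase of the regulatory cap, stood at 602, 645 and 529 and 303, 312 and 309 (-0.94 ± 0.075), and RPN1, which receives ubiquitin-linked proteins, at 448, 507 and 394 and 255, 268 and 244 (-0.81 ± 0.088). The 3 G1242V libraries were close together and below WT for each of these genes. Against the same WT libraries the proteasome median was -0.43 in R787G and -0.22 in the empty vector. With TPM as deposited the empty vector median was 0.010. The Rpn4 element GGTGGCA was found in 61.8% of 34 proteasome promoters and in 2.84% of all. RPT1, where it reads TGCCACC on the gene's strand, and RPN1 are shown with it in capitals.
RPT1 (chrXI:174020-174106, forward strand): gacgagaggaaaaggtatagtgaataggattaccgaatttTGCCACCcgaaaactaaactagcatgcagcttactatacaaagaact
RPN1 (chrVIII:164812-164896, reverse strand): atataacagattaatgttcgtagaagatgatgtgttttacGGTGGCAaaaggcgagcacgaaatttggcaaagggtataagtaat

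Other protein folding genes did not move as a block. Among 26 targets of the heat shock factor Hsf1 and cytosolic chaperones, 4 rose and 10 fell, or 4 and 6 in the fit of only the 2 groups. HSP26, a small heat shock protein, fell from 1456, 1757 and 2560.2 to 483, 616 and 545 (-1.78 ± 0.23), STI1, a co-chaperone, had -0.75 ± 0.10, and HSP10, of the mitochondrial chaperonin, rose by 0.71 ± 0.12. Of 19 genes of folding and transport in the endoplasmic reticulum, 13 rose and 5 fell (median 0.42). SSS1, of the translocation channel, rose by 1.16 ± 0.090, and EUG1, a protein disulfide isomerase, by 1.02 ± 0.067. ERO1, the oxidase that feeds disulfide formation, went the other way, from 992, 1130.1 and 787.5 to 257, 281 and 325 (-1.74 ± 0.13, adjusted p = 5.17e-06). Vacuolar protease and autophagy genes had 12 of 17 lower and none higher (median -0.50): ATG1, the autophagy kinase, fell from 113, 136 and 115 to 56.8, 56.7 and 56.8 (-1.08 ± 0.073), and APE1, a vacuolar aminopeptidase, at -1.64 ± 0.15.

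General stress genes under the factors Msn2 and Msn4 fell in 27 of 40 cases and rose in 2, with a median of -0.64. In R787G and the empty vector, set against the same WT libraries, it was -1.63 and -1.20. By library the median difference from the WT mean was -0.79, -0.73 and -0.27 in G1242V, so replicate 3 again lay closest to WT, and -0.15, -0.076 and 0.24 in WT. GRE1, a hydrophilin, fell from 1977, 2541 and 4117 to 145, 223 and 390.1 (-3.55 ± 0.34), and GRE2, a methylglyoxal reductase, from 2989, 2894 and 2494 to 461, 511 and 795 (-2.28 ± 0.18). CTT1, the cytosolic catalase, was at 607, 521 and 1006 and 557, 569 and 964 (-0.020 ± 0.25, adjusted p = 0.954), and its groups overlapped. CIP1, an inhibitor of cyclin-dependent kinase, rose by 0.80 ± 0.075.

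Sulfate uptake and reduction fell in 12 of 16 genes and rose in 2, with a median of -1.39. R787G and the empty vector had medians of -2.26 and -1.60 against the same WT libraries. The spread between G1242V cultures was wide, at -1.66, -1.76 and -0.51 from the WT mean. The sulfate permeases SUL1 and SUL2 led: SUL1 fell from 39.5, 43.2 and 72.3 to 5.56, 6.45 and 13.5 (-2.51 ± 0.30), and SUL2 from 161, 181 and 265 to 19.96, 22.7 and 82.3 (-2.52 ± 0.43, adjusted p = 8.06e-04). G1242V replicate 3 was the highest of its group for both but below every WT library. MET31, a DNA-binding regulator of the pathway, rose by 0.77 ± 0.081. CACGTG, the Cbf1 element, which reads the same on both strands, was in 87.5% of 16 promoters of the list and 4.62% of all, and SUL2 is shown because its stretch holds it at 2 places.
SUL2 (chrXII:323196-323281, forward strand): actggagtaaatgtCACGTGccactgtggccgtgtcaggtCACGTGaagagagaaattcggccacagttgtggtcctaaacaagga
Of 13 sulfur scavenging genes 7 fell and 1 rose, with YCT1, a cysteine transporter, at -1.84 ± 0.29 and AGP3, an amino acid permease, at -1.82 ± 0.19. Methionine and S-adenosylmethionine genes had 6 of 22 higher and 10 lower, the rises near the 26.6% of all genes. Without G1242V replicate 1 it was 2 and 8, and without WT replicate 2 it was 2 and 9. GSH1, the first enzyme of glutathione synthesis, fell from 556, 616 and 601 to 125, 132 and 255 (-1.86 ± 0.22), and CYS3 (chromosome I), which makes cysteine, fell, at -1.64 ± 0.22. SAH1, which recycles S-adenosylhomocysteine, rose from 286, 196 and 242 to 813, 709 and 539 (1.5 ± 0.17).

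**Figure D5:**
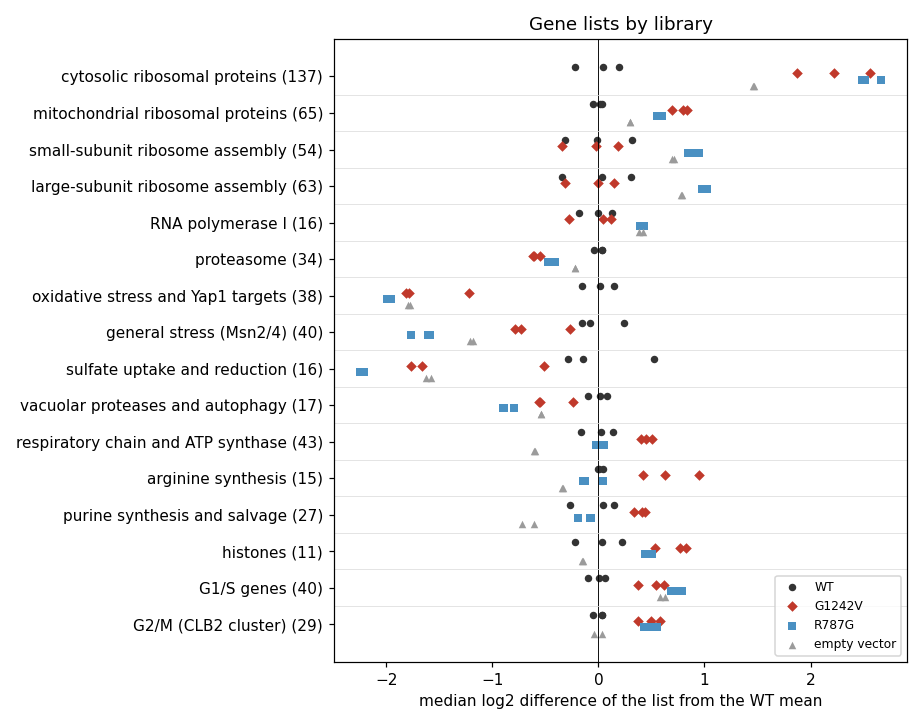
For 16 gene lists (number of genes tested in brackets), the median log2 difference from the WT mean (horizontal axis) in each of the 11 libraries, coloured by group. Ribosomal proteins lie to the right and the oxidative stress, sulfate and proteasome lists to the left in all 3 G1242V libraries. The R787G and empty vector libraries lie on the same side of the WT mean for these lists. The 2 assembly lists of G1242V lie close to the WT libraries. For the small subunit, replicate 3 of G1242V (-0.34) lies just below the lowest WT library (-0.31).

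Energy genes moved in parts. Of 43 nuclear genes of the respiratory chain and ATP synthase 35 rose and 1 fell (median 0.43), and with quantile normalization 15 rose and 3 fell. ATP20 and ATP19, subunits of the ATP synthase, rose by 0.91 ± 0.097 and 0.91 ± 0.12, with ATP20 at 219, 175 and 232 in WT and 394, 383 and 399 in G1242V. NDE2, an outward-facing NADH dehydrogenase, was the one that fell, from 61.9, 81.02 and 85.0 to 22.7, 22.5 and 36.4 (-1.47 ± 0.19). Of 18 genes of the tricarboxylic acid cycle 7 rose and 2 fell, and with quantile normalization it was 4 and 5. ACO1, aconitase, rose by 0.65 ± 0.12, and CIT3, a minor citrate synthase, fell, at -1.35. Glycolysis and fermentation had 6 of 29 higher and 6 lower, both shares under those of all genes: HXK1, a hexokinase, rose from 205, 218 and 273 to 770.3, 727 and 864 (1.77 ± 0.12), and TDH1, the stress form of glyceraldehyde phosphate dehydrogenase, fell from 5127, 4586 and 5769.6 to 1886, 1665 and 2881 (-1.30 ± 0.18), with near-identical copies. Hexose transport had 5 of 23 higher and 8 lower, shares not far from the 26.6% and 27.3% of all genes. HXT7, a high-affinity carrier with a near-identical neighbour, had 1.65 ± 0.13 and HXT5, expressed in slow growth, -2.57 ± 0.26.

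Genes that glucose represses fell in 16 of 27 cases and rose in 1 (median -0.37): ALD4, mitochondrial aldehyde dehydrogenase, fell from 672, 789 and 730.4 to 218, 249 and 319 (-1.49 ± 0.12), and ACS1 (chromosome I), acetyl-CoA synthetase, at -2.25 ± 0.28. The pentose phosphate list had 5 of 12 lower and 1 higher, or 8 and 1 with quantile normalization. GND2, the stress form of phosphogluconate dehydrogenase, fell from 364, 433 and 469 to 50.5, 79.2 and 121 (-2.40 ± 0.25), and ZWF1, the first enzyme of the pathway, at -1.23 ± 0.093. Storage sugars went the other way, with 11 of 20 trehalose and glycogen genes higher and 4 lower, or 7 and 4 in the fit of only the 2 groups. GPH1, glycogen phosphorylase, rose from 100.5, 99.3 and 185 to 395, 384 and 438 (1.71 ± 0.21), and NTH2, a trehalase, fell, at -1.55 ± 0.14.

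Lists of amino acid synthesis had more genes higher than lower. Of 15 arginine genes 9 rose and 5 fell, with a median of 0.66. ARG1, argininosuccinate synthetase, rose from 459, 381 and 405 to 1485, 1058 and 870.3 (1.42 ± 0.17), and ARG4, the lyase of the next step, from 266, 203 and 348 to 831, 624 and 513 (1.27 ± 0.20). The genes that fell included CAR2, which breaks arginine down (-0.58), and ARG81, a regulator (-0.49). Of 15 branched-chain genes 11 rose and 1 fell, or 6 and 1 with quantile normalization; BAT1, the mitochondrial transaminase, rose by 0.93 ± 0.13. Of 10 lysine genes 8 rose and 1 fell, with LYS9, near the end of the pathway, at 0.64 ± 0.11. Besides HIS3, HIS1, the first enzyme of histidine synthesis, rose by 0.89 ± 0.12, in a list with 4 of 8 higher and 1 lower, or 7 and 1 with values centred per chromosome. Among 36 genes of aromatic, serine and other amino acids 21 rose and 9 fell, SER3, which starts serine synthesis, from 196, 149 and 171 to 523, 516 and 482 (1.56 ± 0.091). TGACTC, the Gcn4 element, was in 73.3% of 15 arginine promoters and 8.71% of all, both strands read. Among genes that changed at least 2-fold it was in 8.84% of 294 promoters of rises and 7.79% of 231 promoters of falls. Both shares were near that of all promoters.

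Purine synthesis and salvage had 16 of 27 genes higher and 1 lower (median 0.37), or 10 and 3 with quantile normalization. MTD1, a folate enzyme of the same regulon, rose from 87.1, 65.4 and 99.96 to 199, 199.99 and 195 (1.25 ± 0.13), ADE17, of the last steps, by 0.82 ± 0.14, and BAS1, a regulator, fell, at -0.41. The strain carries ade2-1, so purine synthesis is incomplete in every group. ADE2 was at 65.1, 58.7 and 59.9 and 80.0, 77.3 and 74.6 (0.33 ± 0.057). Pyrimidine genes had 4 of 15 higher and 7 lower, the rises near the 26.6% of all genes. FUR1, a salvage enzyme, was at 0.79 and URA8, a CTP synthase, at -0.65.

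Lists for cell cycle phases leaned upward. Of 40 G1/S genes 28 rose and 2 fell (median 0.51). R787G and the empty vector had medians of 0.73 and 0.61 against the same WT libraries. POL30, the replication clamp PCNA, stood at 23.1, 25.8 and 36.1 in WT and 101.1, 105 and 68.5 in G1242V (1.66 ± 0.18, adjusted p = 4.45e-05). CLB6, an S-phase cyclin, rose from 0.922, 0.9505 and 1.65 to 7.87, 7.36 and 4.31 (1.77 ± 0.19), and NRM1, a repressor made late in G1, from 7.36, 8.39 and 7.86 to 32.1, 31.0 and 19.7 (1.66 ± 0.15). All 3 were lowest in replicate 3 within G1242V, and still above WT. ACGCGT, the MBF element, which reads the same on both strands, was in 57.5% of 40 G1/S promoters and 4.08% of all. Among genes that changed at least 2-fold it was in 5.44% of 294 promoters of rises and 2.16% of 231 promoters of falls.
CLB6 (chrVII:706833-706901, reverse strand): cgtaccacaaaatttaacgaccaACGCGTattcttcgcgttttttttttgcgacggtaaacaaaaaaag
POL30 (chrII:425916-426001, reverse strand): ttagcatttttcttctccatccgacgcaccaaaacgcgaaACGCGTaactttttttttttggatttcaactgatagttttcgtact
Histone genes rose in 10 of 11 cases and none fell (median 0.72): HTA2 and HTB2, copies of H2A and H2B, rose by 1.93 ± 0.25 and 1.51 ± 0.15, and HTB1 had 0.0051. HTB1 turned to -0.32 with quantile normalization (adjusted p = 0.0192), and histone genes come in near-identical pairs. Of 39 replication genes 17 rose and 7 fell, RFC5, of the clamp loader, at 0.90 ± 0.10 and ORC5, of the origin complex, at -0.94 ± 0.090. With TPM rescaled to nuclear protein-coding genes it was 11 and 7.

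Of 29 genes of the CLB2 cluster, expressed at G2/M, 24 rose and 1 fell (median 0.49). CLB1, a mitotic cyclin, rose from 29.5, 22.99 and 29.4 to 81.4, 78.4 and 56.1 (1.36 ± 0.14), and CLB2, its partner, by 0.93 ± 0.10. ASE1, a spindle midzone protein, fell from 124, 125 and 112 to 44.5, 49.4 and 50.9 (-1.30 ± 0.069, adjusted p = 2.86e-06). Of 23 M/G1 genes 9 rose and none fell, PIR1, a cell wall protein, at 0.80 ± 0.12. DNA damage response genes were mixed, 7 of 25 higher and 12 lower, the rises near the 26.6% of all genes. RNR1, the large subunit of ribonucleotide reductase, rose from 32.9, 29.7 and 34.04 to 87.4, 99.5 and 61.3 (1.31 ± 0.14). DDI1, a shuttle to the proteasome, fell, at -1.26 ± 0.12. No synchronization step is described for these cultures, and the share of cells in each phase was not measured.

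In the mating list 9 of 21 a-specific and pheromone response genes rose and 1 fell. BAR1 (chromosome IX), the protease for alpha factor, rose from 26.97, 19.7 and 17.7 to 57.8, 55.98 and 57.96 (1.39 ± 0.16), and FAR1, which halts the cycle in pheromone, by 1.18 ± 0.17. Of 9 alpha-specific and silent mating genes 3 rose and 2 fell, or 1 and 2 without WT replicate 2 and 5 and 2 with values centred per chromosome. HO, listed with these genes here though neither alpha-specific nor at a silent mating locus, was among the rises. MF(ALPHA)1, an alpha-factor gene, also rose, at 3.69, 3.09 and 2.91 in WT and 6.37, 3.76 and 7.09 in G1242V (0.64 ± 0.21). MF(ALPHA)1 did not pass without G1242V replicate 1 or 3 or WT replicate 2 or 3 (adjusted p 0.072 to 0.0937). STE3 and SAG1, which alpha cells express, fell, at -0.52 and -0.39. Of 15 silencing genes 3 rose and 5 fell (median -0.043), shares not far from the 26.6% and 27.3% of all genes. SIR4 fell from 35.2, 37.7 and 35.3 to 21.1, 22.3 and 21.8 (-0.70 ± 0.056), and HST1, a deacetylase, had -0.62 ± 0.049. Of 45 meiosis genes 12 rose and 9 fell, the rises near the share of all genes, or 6 and 8 among genes above 10 TPM and 7 and 7 in the fit of only the 2 groups.

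By position and size the calls were uneven. Within 20 kb of a centromere, where cohesin is dense, 23.8% of 328 genes rose and 27.1% fell, and within 30 kb of a chromosome end 20.7% of 338 rose and 31.1% fell, against 28.8% and 28.7% of the 5240 genes in neither zone. Of the 1477 genes with the highest mean level 43.2% rose and 24.8% fell, against 20.4% and 28.8% of the 1477 with the lowest. The 1480 shortest genes had 35.5% higher and 19.1% lower (median 0.14), and the 1476 longest had 17.7% and 39.97% (median -0.12). Ribosomal protein genes are short and highly expressed, so these 2 splits share members with them. Chromosomes I and IX had 12.2% and 33.2% of genes called, against 54% to 62.4% of the other nuclear chromosomes.

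Against the other variant, R787G, the direct fit called 2972 of 6432 genes (46.2%), 1279 higher (19.9%) and 1693 lower (26.3%) in G1242V. Scaling moved that split: higher calls were 43.0% of calls here, 24.5% with TPM as deposited (median over all genes -0.16 in place of -0.050), and 26.5% with rescaling to coding genes. Ribosome assembly was the clearest difference. All 54 small-subunit genes and 62 of 63 large-subunit genes were lower in G1242V than in R787G, with medians of -0.98 and -1.04 and the same counts under all scalings. DBP2, an RNA helicase, stood at 48.97, 57.3 and 33.2 in G1242V and 145, 136 and 146 in R787G (-1.63 ± 0.24, adjusted p = 7.88e-04), and DHR2, a helicase of small-subunit assembly, at 7.35, 9.43 and 5.22 and 23.02, 22.5 and 22.3 (-1.53 ± 0.22). Lack of overlap between the groups was a condition for naming both genes. Against WT, with whose libraries both variants are compared, the assembly medians were 0.89 and 1.01 in R787G and -0.061 and -0.069 in G1242V, while ribosomal proteins had 2.57 in R787G and 2.21 in G1242V. Ribosomal proteins themselves were lower in G1242V than in R787G in 26 of 137 cases, a share under the 26.3% of all genes, and higher in 1. The count of lower genes ran from 79 to 82 under the other scalings. It was 81 without G1242V replicate 1 and 11 without G1242V replicate 3. It was 11, 11 and 5 without R787G replicates 1, 2 and 3, and 15 in the fit of only the 2 groups. RNA polymerase I genes were lower in 11 of 16 cases and higher in none. Other large falls were AAH1, adenine deaminase (-1.82 ± 0.20), URA7, a CTP synthase (-1.65 ± 0.24), and THI4, of thiamine synthesis (-1.42 ± 0.27).

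G1242V exceeded R787G in general stress, oxidative stress and energy genes, but not in every stress list. Of 26 Hsf1 and chaperone genes 2 were higher and 14 lower, or 2 and 6 without R787G replicate 2. Of 19 endoplasmic reticulum genes 1 was higher and 9 were lower. Of 34 proteasome genes none was higher and 13 were lower. That count was 2 without R787G replicate 2 and 27 with quantile normalization. General stress genes were higher in 30 of 40 cases and lower in 1 (median 0.84), respiratory chain genes in 41 of 43 with 1 lower (0.47), cycle genes in 16 of 18 with none lower (0.45), and glycolysis in 20 of 29 with 3 lower (0.59). FMP45, a membrane protein of the Sur7 family, stood at 71.2, 83.03 and 117 in G1242V and 16.8, 14.7 and 13.5 in R787G (2.49 ± 0.19, adjusted p = 8.95e-05). CTT1 stood at 557, 569 and 964 and 149, 135 and 132 (2.27 ± 0.25), and ICY1 rose by 2.05 ± 0.14 and NRS1 by 2.34 ± 0.34. FMP45 and CTT1 were taken by the rule for the largest rises, which requires groups that do not overlap. Oxidative stress genes were higher in 18 of 38 and lower in 2 (0.33), or in 10 and 2 without R787G replicate 1 and 11 and 4 with rescaling to coding genes, with TSA2 at 1.67 and OSI1 at -0.97. Mitochondrial ribosomal proteins were higher in 36 of 65, a count of 10 to 19 under the other scalings, 20 and 21 without G1242V replicates 1 and 2, and 22 and 19 without R787G replicates 1 and 2. In the cohesin list 3 genes were lower, SMC3 (-0.53 ± 0.097), PDS5 (-0.30 ± 0.089) and SCC4 (-0.27 ± 0.066), and none was higher; 6 were lower with TPM as deposited or rescaled to coding genes. PDS5 lost its call without G1242V replicate 1 or 3 or R787G replicate 2 or 3 (adjusted p 0.0509 to 0.0664). SCC2 had -0.31 ± 0.13 (adjusted p = 0.0674) and passed under the other scalings, at -0.34 to -0.43.

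Against the empty vector 4051 genes (63%) were called, 1646 higher (25.6%) and 2405 lower (37.4%). Higher calls were 40.6% of calls, 20.7% with TPM as deposited (median over all genes -0.34 in place of -0.091), and 16.4% with rescaling to coding genes (median -0.42). SCC2 was higher in G1242V by 1.91 ± 0.14 (adjusted p = 1.01e-05). Assembly genes were again lower, 50 of 54 and 61 of 63 with none higher (medians -0.76 and -0.79), whereas ribosomal proteins were higher in 112 of 137 and lower in none (0.74). Against the shared WT libraries the empty vector had medians of 0.70 and 0.79 for the assembly lists and 1.45 for ribosomal proteins. The count of 112 was 78 with TPM as deposited, 70 with rescaling to coding genes and 39 with quantile normalization. Respiratory chain genes were higher in 42 of 43 (1.07) and histones in 10 of 11 (0.91). Meiosis genes were lower in 37 of 45 and higher in 2 (-1.02), or in 24 and 5 with quantile normalization and 22 and 2 among genes above 10 TPM. ADH4, an alcohol dehydrogenase of zinc-poor cells, was read at 1077, 576 and 1526 with G1242V but 66.2 and 66.3 with the empty vector (3.87 ± 0.37, adjusted p = 2.81e-05). ADE17 stood at 634, 592 and 665 and 69.99 and 75.7 (3.10 ± 0.16), and ADE1 (chromosome I) and ZPS1, another zinc-response gene, were higher by 2.45 and 3.20. Lower were SSA3, a stress-induced chaperone, at 71.3, 84.8 and 52.6 and 467 and 457 (-2.74 ± 0.20), ULI1 (-2.85 ± 0.11), JLP1, a sulfonate dioxygenase (-2.61 ± 0.21), and BSC1 (-2.53 ± 0.38). The empty vector has only 2 libraries. Each gene given here with its levels was named by a rule that required groups without overlap, so its lack of overlap is no further result.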

How the data were processed

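Stranded libraries from ribo-depleted total RNA of 11 cultures gave single reads of 50 bp, per the labels' protocols. The submitters' processing notes name bcl2fastq 2.17, STAR, RSEM, edgeR and build sacCer3; for the annotation, other versions and strand setting the sources used here give nothing, so genes overlapping on opposite strands are uncertain. The authors deposited TPM per feature, which keep no depth, so no count model was used.

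Of 7036 features, 1 row shifted by a field was left out; 5955 matched the R64 annotation by locus tag, 122 by symbol, 958 not. TPM were scaled by median of ratios over the 5221 genes that reached 10 TPM in all libraries. The 6432 features reaching 1 TPM in 2 or more libraries were fitted on log2(scaled TPM + 1) in one model of 4 groups by limma 3.58.1 under R 4.3.3 (trended eBayes, two-sided, Benjamini-Hochberg over all genes, threshold 0.05), checked on simulated data. p-values measure the spread between cultures. Members, gene lists, motifs and tests were chosen with earlier results of these data known. Lists are described by counts and medians. Named genes were the cohesin list, HIS3, the 15 largest rises and falls (5 for R787G and the empty vector) with a symbol, no overlap and a mean of at least 10 scaled TPM, and up to 2 rises and 2 falls per list plus up to 4 further members; others are marked, and 1 gene the rule named is not reported here. Alternatives changed scaling, pseudocount, filter, eBayes, groups fitted, chromosomes and replicates. Figures used matplotlib 3.10.9 in Python 3.11.15, and sequences came from RefSeq R64.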

Additional observations from a re-analysis of the deposited data

How the results depend on the processing

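Of 262 named genes, 243 passed the threshold for G1242V against WT, 209 of these in all 19 alternatives and 34 not in at least 1, and none of the 243 changed direction. HTB1, not past the threshold, turned to -0.32 with quantile normalization. Genes called against WT numbered 3472 and ran from 2988 to 3641 with a library left out; against R787G 2972 and from 2240 to 2797; against the empty vector 4051 and from 2924 to 3962. HIS3 ran from 1.16 to 1.48 and SCC2 from -0.37 to -0.20. SCC2 passed only with rescaling to nuclear protein-coding genes (-0.37). Deviations of same-numbered G1242V and WT libraries had r of 0.20, -0.037 and 0.27, and those of other pairs ran from -0.38 to 0.30. These few values cannot decide whether the numbers pair the libraries. With the replicate number as a block 3485 genes were called, 3357 of them shared. The list medians moved beyond the replicate spread in 43 of 1159 refits, in 21 of 61 lists; the cause was not tested. Counts of fewer than 5 genes in a direction also moved under some alternatives, mostly not given beside them. TPM keep no depth, so precision shows only in the spread between cultures, and genes near 1 TPM and near-identical copies are the least certain.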

Other observations

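Nutrient and surface genes not described above were as follows in G1242V against WT. Ergosterol and mevalonate genes rose in 19 of 28 cases and fell in 2 (median 0.33), with CYB5, the electron donor of sterol enzymes, from 114, 73.1 and 113 to 205, 210.2 and 173 scaled TPM (0.99 ± 0.15) and ERG28 by 0.85 ± 0.12. Cell wall genes rose in 16 of 32 and fell in 5: GAS3, a wall glycoprotein, stood at 12.4, 12.4 and 12.8 in WT and 74.99, 68.8 and 54.2 in G1242V (2.29 ± 0.099, limma adjusted p = 2.33e-06), and CWP1, a mannoprotein, at 136, 90.7 and 86.4 and 444, 407 and 317 (1.90 ± 0.18). Both were far apart between the groups. GSC2, a glucan synthase, went the other way with -0.66 ± 0.061. Hypoxic genes rose in 10 of 22 and fell in 4, or 6 and 3 without G1242V replicate 1 or 2, with FET4, a low-affinity metal carrier, from 16.96, 15.6 and 21.7 to 66.8, 59.1 and 62.99 (1.76 ± 0.10) and ROX1, the hypoxic repressor, at -1.12 ± 0.11. PAU genes, a family of near-identical copies, fell in 6 of 19, a share near the 27.3% of all genes, and rose in none. Among genes above 10 TPM they fell in 1.

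Iron genes fell in 14 of 28 and rose in 5: FET3, the copper oxidase of high-affinity uptake, rose from 30.9, 39.8 and 50.05 to 101.1, 102 and 84.9 (1.25 ± 0.15) and FIT2, a wall mannoprotein for siderophores, by 1.34 ± 0.17, while ISU2, a scaffold for iron-sulfur clusters, fell from 240.5, 318 and 215 to 75.2, 67.3 and 88.6 (-1.72 ± 0.14) and AFT2, a regulator, at -1.32 ± 0.097. Zinc genes rose in 5 of 20 and fell in 6, shares near the 26.6% and 27.3% of all genes, or 8 and 6 without WT replicate 1, with ZAP1, the regulator, at -1.08 ± 0.16 and ZRT2, the low-affinity carrier, at -0.91 ± 0.068. Thiamine genes rose in 4 of 21 and fell in 4, or 9 and 2 with values centred per chromosome, with THI4 at 26.8, 31.3 and 31.2 in WT and 104, 156 and 62.7 in G1242V (1.73 ± 0.27). Phosphate genes rose in 2 of 20 and fell in 3, or 1 and 5 under the other scalings and without G1242V replicate 3. Nitrogen catabolite genes rose in 4 of 25 and fell in 6, the falls near the 27.3% of all genes. MEP2, an ammonium carrier, was at 0.95 ± 0.18 and UGA1, of GABA breakdown, at -0.64 ± 0.079. Of the 501 tested features with no match in the annotation, 51 were higher and 57 lower. YOR387C, which has no standard symbol and was picked out after its values were seen, stood at 4.65, 3.03 and 3.22 in WT and 36.3, 6.69 and 229 in G1242V, so 1 culture set most of its level (3.14 ± 1.01, adjusted p = 0.0236); without G1242V replicate 3 it was 1.89 (adjusted p = 0.0525).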
